A study of Mus musculus with 3 samples.

Results

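The transcripts of 10 antioxidant enzymes (Sod1, Sod2, Cat, Gpx1, Gpx4, Prdx1, Prdx5, Txn1, Txnrd1 and Srxn1) were read in 3 libraries of sorted mouse cells, as the 10 rows of those symbols among 23234 genes. All cells came from wild-type C57BL/6J mice of 6 to 15 weeks that had received lipopolysaccharide (LPS), a bacterial cell wall component, into the nostrils at 10 µg in 10 µL of buffer. Nasal double-positive cells (DP) were sorted from the nose as CD45+Ly6G+SiglecF+, 2 days after instillation. The nasal neutrophil gate was CD45+Ly6G+SiglecF-, applied to the nose 1 day after instillation, and blood neutrophils came through the same gate from peripheral blood, also after 1 day. Each group had 1 library, so no value below has a replicate error and no difference was tested; "higher" and "lower" compare these libraries. Gate and day differ together between DP and the other groups, and the labels give no untreated mice and no number of animals per library.

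Activated phagocytes make superoxide, and the enzymes described here remove it and what it becomes. Superoxide dismutases turn superoxide into hydrogen peroxide, which catalase, glutathione peroxidases and peroxiredoxins reduce further. Peroxiredoxins are recharged by thioredoxin, thioredoxin by thioredoxin reductase with NADPH, and over-oxidised peroxiredoxins by sulfiredoxin. Several of these genes are known targets of the transcription factor NRF2, which acts through antioxidant response elements, and Sod2 is a known NF-kappaB target.

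Levels are in FPKM, a unit scaled to both transcript length and library size to allow comparison between genes. That comparison is approximate, since member ratios between libraries changed when centred within transcript length bins. Depth, read from the steps between low values, was near 54900000 fragments in DP, 12900000 in nasal and 54500000 in blood neutrophils. The member value resting on the fewest fragments, Srxn1 in blood, had about 107, a counting error of 9.65%; counting error is only part of the error of a library. In all 3 libraries every member was above 0, and all 10 passed the filter of a mean of 1 FPKM. The gates were partly visible: Siglec5, the row for the SiglecF gene, was at 168 FPKM in DP against 9.92 in nasal and 18.7 in blood neutrophils. The CD45 gene Ptprc, whose product all 3 gates required, was at 445 FPKM in DP, 137 in nasal and 719 in blood neutrophils, more than 4-fold lower in nasal than in blood neutrophils (log2 ratio of FPKM + 1 of -2.39). Ly6g was not analysed here. The 12 neutrophil markers summed to 12924 FPKM in DP, 58918 in nasal and 79782 in blood neutrophils, with S100a8 listed at 0 in blood, which can be a failed estimate. By gene they had no common order between nasal and blood neutrophils. At least 4-fold higher in nasal neutrophils were 3, S100a8 among them, and 3 were lower, with a median log2 ratio of 0.02. Of genes passing the filter 13.1% were higher and 3.23% lower. In bulk RNA, fewer cells of a type and less RNA per cell cannot be told apart.

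**Figure D1:**
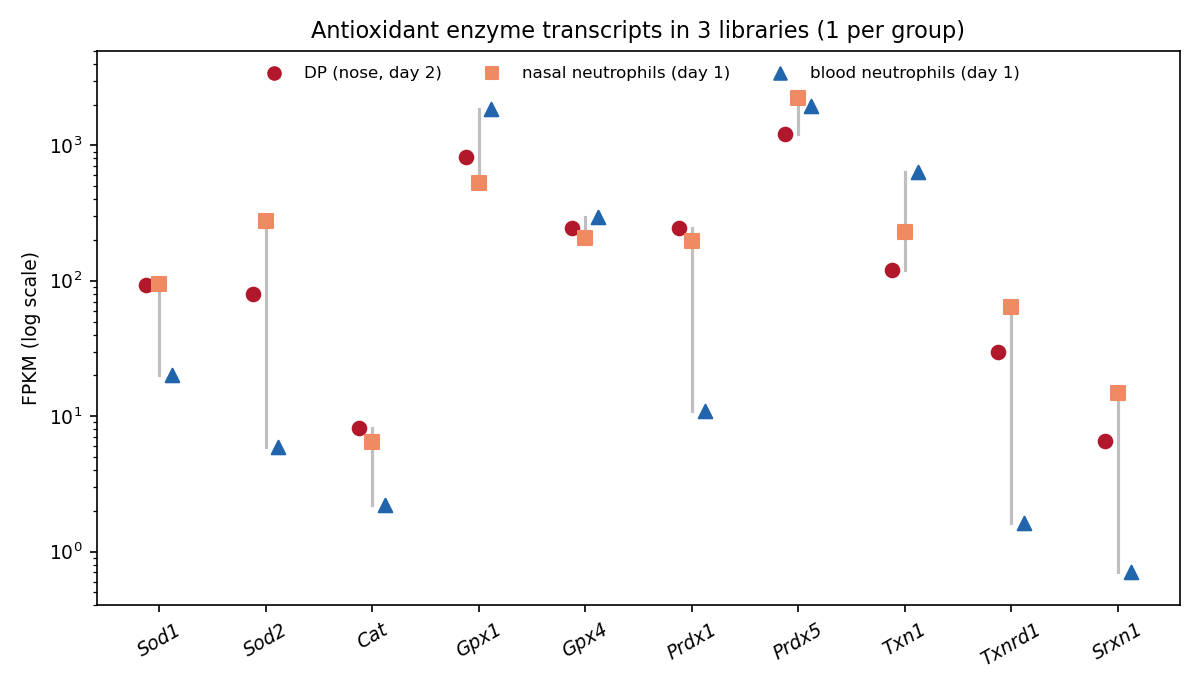
FPKM of the 10 antioxidant enzyme genes on a log axis, 1 point per library (circles DP, squares nasal neutrophils, triangles blood neutrophils); grey lines join the lowest and highest library. Sod2 spans 5.87 to 277 FPKM, while Gpx4 stays between 208 and 297 FPKM.

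The superoxide dismutases differed in which library held them. Sod1, the copper-zinc enzyme of the cytosol, stood at 92.4 FPKM in DP, 94.3 in nasal and 20.3 in blood neutrophils. Both nasal libraries were nearly equal and above blood. Sod2, the manganese enzyme of mitochondria, stood at 79.8 FPKM in DP, 277 in nasal and 5.87 in blood neutrophils, the widest range of the 10 genes. Its log2 ratio of FPKM + 1, the scale of all ratios below, was 5.34 between nasal and blood neutrophils (nasal over blood) and -1.78 between DP and nasal neutrophils (DP over nasal). The mitochondrial gene exceeded the cytosolic one in nasal neutrophils and in neither other library: Sod2 over Sod1 was 2.94 there, 0.86 in DP and 0.29 in blood. The transcripts differ in length, 641 nt for Sod1 and 5861 nt for Sod2. For DP over nasal neutrophils the 2 genes were at -0.03 and -1.78 as deposited. Within transcript length bins they were at -1.57 and -2.01, so the contrast between them was much smaller. With Sod3 and Ccs, 3 of 4 genes were tested, with medians of -0.03 for DP over nasal and 2.16 for nasal over blood neutrophils. Ccs, the chaperone that loads copper into SOD1, stood at 26.1, 7.49 and 2.93 FPKM in the order DP, nasal neutrophils, blood neutrophils, and the secreted enzyme's gene Sod3 was at 0.54 FPKM or less in each.

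Gpx1 and Gpx4 transcripts were abundant in all 3 libraries and highest in blood neutrophils, while catalase transcripts were scarce. Gpx1, the main cytosolic glutathione peroxidase and a selenoprotein, stood at 817 FPKM in DP, 531 in nasal and 1845 in blood neutrophils. It ranked 110th, 163rd and 49th among all genes of those libraries. Its log2 ratio was -1.79 for nasal over blood neutrophils and -1.17 for DP over blood. Gpx4, the selenoenzyme that reduces lipid peroxides in membranes, was the steadiest member, at 246 FPKM in DP, 208 in nasal and 297 in blood neutrophils. Cat, the haem enzyme catalase of peroxisomes, was low throughout, at 8.13 FPKM in DP, 6.42 in nasal and 2.19 in blood neutrophils. Gpx1 thus exceeded Cat by 101 times in DP, 82.8 times in nasal neutrophils and 843 times in blood neutrophils, on the FPKM scale.

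Red cell transcripts, like Gpx1, were highest in blood neutrophils. The 8 red cell markers with a row summed to 5511 FPKM in blood neutrophils, 25.9 in nasal neutrophils and 18.5 in DP, with Epor at 0 in DP and in blood neutrophils. Their part in the Gpx1 value, and in that of other members, was not tested.

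Among the peroxiredoxins, Prdx5 was abundant everywhere and Prdx1 was higher in both nasal libraries than in blood. Prdx5, which is found in mitochondria, peroxisomes and cytosol, stood at 1210.15 FPKM in DP, 2239 in nasal and 1955 in blood neutrophils, and was the highest member in each library. It ranked 59th, 38th and 46th of all genes. Prdx1, a cytosolic 2-cysteine peroxiredoxin, stood at 247 FPKM in DP, 196 in nasal and 10.8 in blood neutrophils. Its log2 ratio was 4.06 for nasal over blood neutrophils and 4.39 for DP over blood, the largest of the members in that last comparison. Prdx5 therefore made up 60.8% of the summed FPKM of the 6 peroxiredoxin genes in DP, 82.3% in nasal and 94.9% in blood neutrophils, while Prdx1 made up 12.4%, 7.20% and 0.53%. Prdx6, the 1-cysteine member, supplied most of the rest, with 19.7%, 8.09% and 3.39%.

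**Figure D2:**
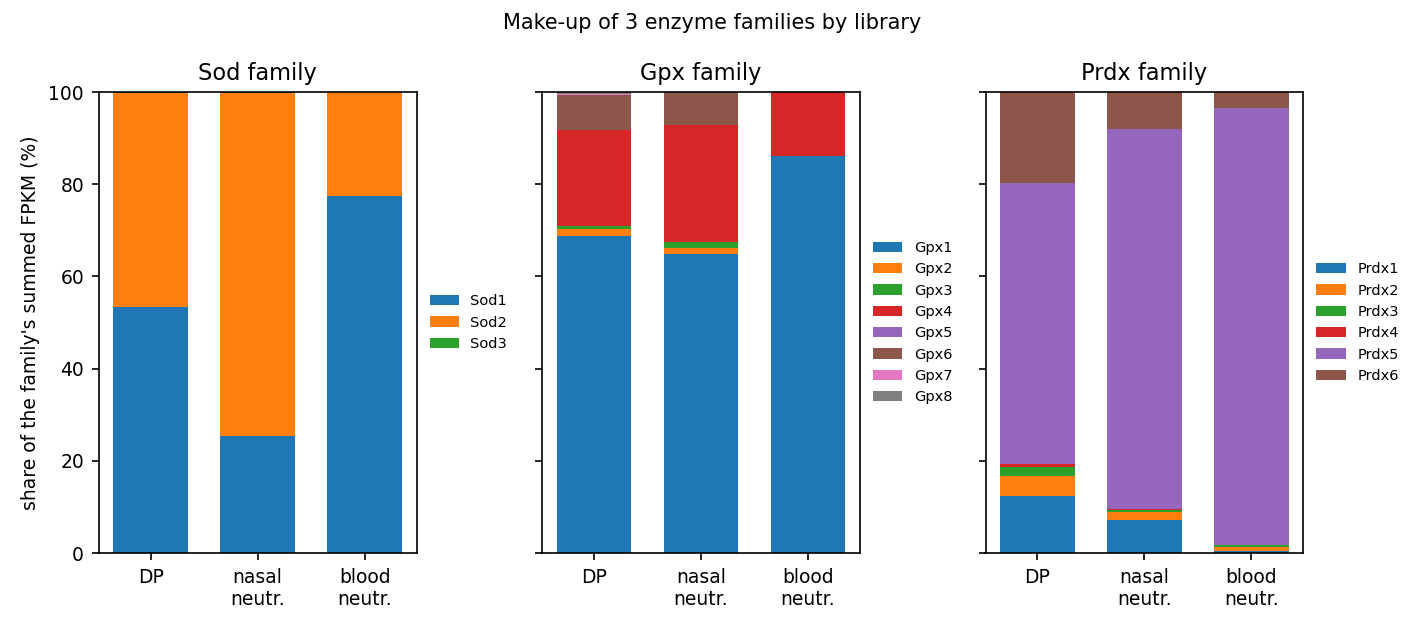
Stacked bars of each gene's share (%) of the summed FPKM of the Sod, Gpx and Prdx families, by library. Sod2 takes 46.2% of the Sod sum in DP, 74.5% in nasal and 22.4% in blood neutrophils, and Prdx5 takes the largest share of the Prdx sum in all 3.

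In the thioredoxin system, blood neutrophils held the most transcript of the thioredoxin and the least of its reductase. Txn1, the cytosolic thioredoxin, stood at 120.4 FPKM in DP, 229.9 in nasal and 636 in blood neutrophils. Txnrd1, the cytosolic selenoprotein that reduces it, stood at 29.9 FPKM in DP, 64.1 in nasal and 1.64 in blood neutrophils. Txn1 over Txnrd1 was thus 389 in blood, against 3.59 in nasal neutrophils and 4.03 in DP. Srxn1, the sulfiredoxin, stood at 6.50 FPKM in DP, 14.8 in nasal and 0.70 in blood neutrophils, so its order was that of Txnrd1. The log2 ratio of Srxn1 for nasal against blood neutrophils was 3.21, and that of Txnrd1 was 4.63. Mitochondrial partners were ordered differently: Txn2 stood at 145, 37.6 and 32.8 FPKM in the order DP, nasal neutrophils, blood neutrophils, and Txnrd2 at 7.27, 1.54 and 0.35. In DP the mitochondrial Txn2 was thus above the cytosolic Txn1, with Txn1 over Txn2 at 0.83, against 6.12 in nasal and 19.4 in blood neutrophils.

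Across the libraries, 5 members were highest in nasal neutrophils, 3 in blood neutrophils (Gpx1, Gpx4 and Txn1) and 2 in DP (Cat and Prdx1). Blood neutrophils were lowest for 6 members. The 10 genes summed to 2858 FPKM in DP, 3861 in nasal and 4774 in blood neutrophils, and Gpx1 and Prdx5 together made up 70.9%, 71.7% and 79.6% of those sums. Summed abundance was therefore highest in blood although most of the genes were lowest there.

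Nasal and blood neutrophils were sorted alike on the same day, from the inflamed tissue and from the circulation. Sod2, Txnrd1, Prdx1, Srxn1 and Sod1 were at least 4-fold higher in the nose, and no member was 4-fold lower. These are 5 of 10 members against 13.1% of the 10719 genes with a mean of 1 FPKM or more, and 0 of 10 against 3.23%. Sod1 (2.16) was under 4-fold with ratios centred on the median of tested genes (1.75), with upper-quartile scaling (1.99) and with a pseudocount of 5 (1.97), and Srxn1 with the latter (1.79). Gpx1 was 4-fold lower when centred (-2.20) and within transcript length bins (-2.37), where Txn1 was too (-2.04). At 2-fold, 6 were higher, with Cat added at a log2 ratio of 1.22, and Gpx1 and Txn1 were lower, at -1.79 and -1.46; of all tested genes 33.5% were higher and 12.8% lower at 2-fold. The median over the members was 1.69, beside 0.41 over all tested genes. Prdx5 was at 0.20, and at -0.21 with ratios centred on the median of tested genes. Markers of nasal tissue were higher in the same direction, at least 4-fold for 9 of 9 olfactory neuron, 9 of 10 tested nasal epithelium and 3 of 6 tested macrophage markers. The 9 olfactory neuron markers summed to 464 FPKM in nasal neutrophils and 4.92 in blood, where Omp, Cnga2, Gng13, Gap43 and Stmn2 were at 0. The 11 nasal epithelium markers summed to 1745 and 1.60 FPKM, with Epcam, Krt5, Cyp2g1, Foxj1 and Krt15 at 0 in blood. The 9 macrophage markers summed to 539 and 400 FPKM, and 6 of them, C1qa, C1qb, C1qc, Mrc1, Mertk and Marco, were at 0 in blood. Monocyte and dendritic cell markers, 9 in all, summed to 1733 FPKM in nasal and 454 in blood neutrophils, with a median of 2.29 and 4 of 7 tested at least 4-fold higher; Clec9a was at 0 in the nose. The part of such cells in the members' values was not tested.

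DP were compared with nasal neutrophils to set Ly6G-positive cells of the nose with and without SiglecF side by side. None of the 10 antioxidant genes was at least 4-fold higher in DP, against 8.42% of tested genes, and none was 4-fold lower, against 3.62%. At 2-fold, Sod2 (-1.78), Txnrd1 (-1.08) and Srxn1 (-1.07) were lower in DP, 3 of 10 against 11.3% of tested genes, and none was higher, against 33.6%. Prdx5 and Txn1 lay just inside 2-fold, at -0.89 and -0.93. Gpx1 (0.62), Prdx1 (0.33), Cat (0.30) and Gpx4 (0.24) were above 0, and each of these was below 0 under at least 2 of the other scalings, among them upper-quartile scaling (-0.04, -0.33, -0.28 and -0.42). Sod1 was at -0.03 as deposited, -0.60 when centred, -0.68 with upper-quartile scaling and -1.57 within length bins. The median of the members was -0.46 while that of all tested genes was 0.57, and 9 of the 10 genes lay below the latter, Gpx1 being the exception. Relative to that shift Sod2 was past 4-fold, at -2.36. Over all tested genes 903 were at least 4-fold higher and 388 lower, and with centred ratios 360 and 773.

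**Figure D3:**
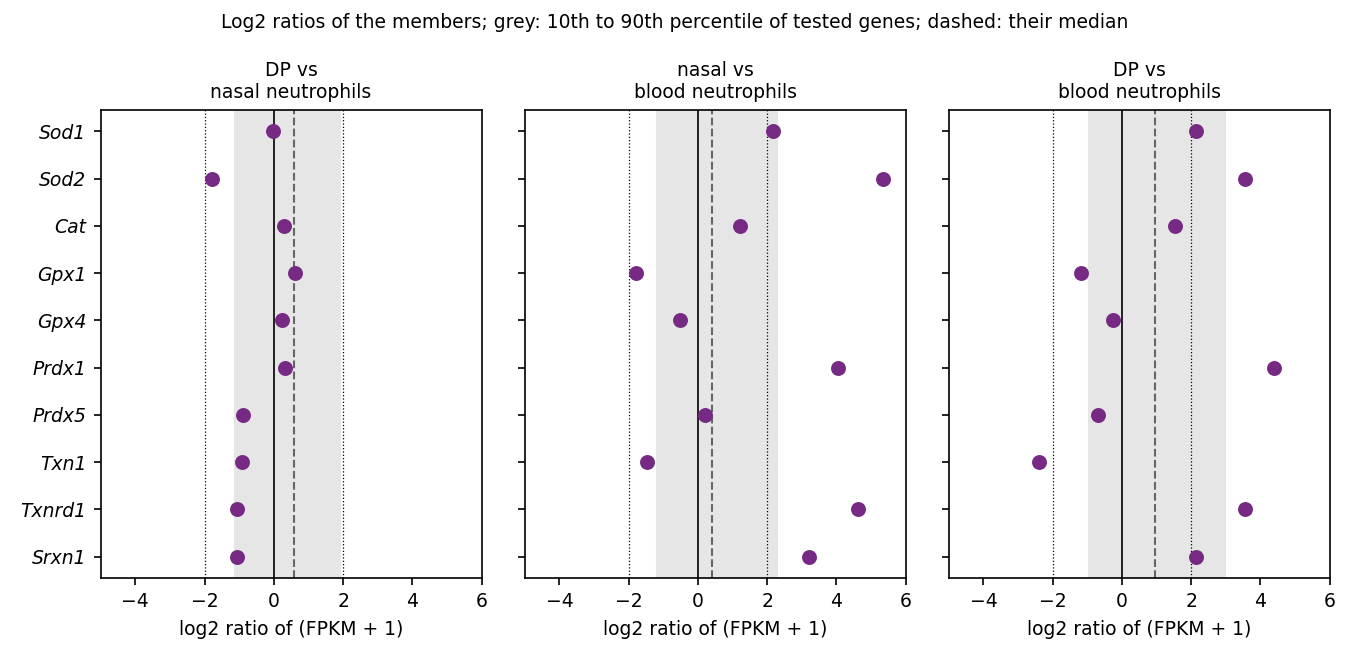
Log2 ratios of FPKM + 1 for the 10 genes in 3 comparisons that share libraries; the grey band spans the 10th to 90th percentile of tested genes, the dashed line their median, dotted lines mark 4-fold. In DP against nasal neutrophils all points lie between -1.78 and 0.62, while in nasal against blood neutrophils they run from -1.79 to 5.34.

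The nasal tissue markers beside that comparison did not move in 1 direction. Olfactory neuron markers summed to 839.5 FPKM in DP and 464 in nasal neutrophils, nasal epithelium markers to 1913 and 1745, and macrophage markers to 458 and 539. Eosinophil markers, which would mark another SiglecF-positive cell, summed to 11.2 and 16.9 FPKM, with Epx and Prg3 at 0 in both. The 3 tested did not move together. Ear2 was lower in DP (0.43 against 11.5 FPKM), while Ccr3 (1.92 against 0.49) and Alox15 (7.98 against 2.73) were higher. Of the 12 neutrophil markers 7 were at least 4-fold lower in DP and 0 higher, against 3.62% and 8.42% of tested genes. B cell markers, 5 with a row, summed to 4.75 FPKM in DP and 43.5 in nasal neutrophils, with 3 of 4 tested at least 4-fold lower in DP, 0 higher and Pax5 at 0 in DP. Monocyte and dendritic cell markers summed to 1126 and 1733 FPKM, with Clec9a at 0 in both; 1 of 7 tested, Ly6c2, was at least 4-fold lower in DP, at 10.4 against 262 FPKM. Their part in the members' values was not tested.

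**Figure D4:**
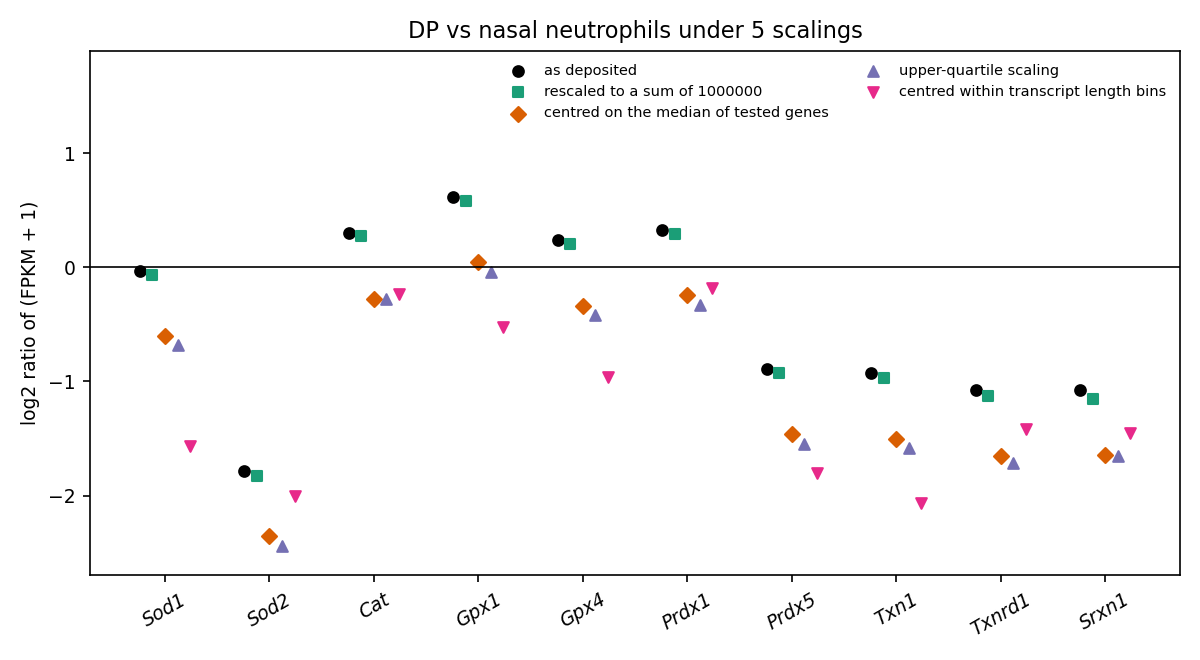
Log2 ratios of FPKM + 1 of the 10 genes for DP against nasal neutrophils with the values as deposited and under 4 other scalings. Sod1, Sod2, Prdx5, Txn1, Txnrd1 and Srxn1 lie below 0 under all 5, while Cat, Gpx4 and Prdx1 cross 0 under 3 of them and Gpx1 under 2.

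DP against blood neutrophils differ in gate, day and tissue at once. Prdx1 (4.39), Sod2 (3.56), Txnrd1 (3.55), Srxn1 (2.14) and Sod1 (2.13) were at least 4-fold higher in DP, 5 of 10 members against 24% of tested genes. Txn1 was 4-fold lower, at -2.39, 1 of 10 against 3.57%. At 2-fold, 6 were higher against 48.6% of tested genes, with Cat added, and 2 were lower against 9.49%, with Gpx1 added. The median was 1.83 over the members and 0.95 over all tested genes, and with ratios centred on the latter 3 members were at least 4-fold higher, Sod1 (1.18) and Srxn1 (1.19) no longer, and Gpx1 (-2.13) was 4-fold lower beside Txn1. Of all tested genes 2577 were higher and 383 lower at 4-fold, and with centred ratios 1116 and 971. For nasal against blood neutrophils these counts were 1408 and 346, and 968 and 609 when centred. This comparison shares a library with each of the others, so its values are not independent of theirs.

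The promoters of the members were read from RefSeq (build GRCm38.p6), 250 bases before to 50 after each annotated start, because the genes high in the nose include known NRF2 targets. All 10 genes matched, with 15 start windows, 4 of them of Gpx4 and 3 of Txnrd1. The core of the antioxidant response element was searched as TGACNNNGC on either strand, and other spellings of it were not searched. It was found in Sod1, Prdx1, Txnrd1 and Srxn1. These are 4 of the 5 members at least 4-fold higher in nasal than in blood neutrophils; the core was in 0 of the other 5 members. Across all genes with a window it was in 13.99% (12.39% of windows). Among 7553 tested genes with a window 17.1% had it, and among the 1006 of these at least 4-fold higher in nasal than in blood neutrophils 17.6%, so over all genes the core was about as frequent in both sets. The AP-1 motif TGANTCA was in Prdx1 and Srxn1 (8.97% of genes), in Prdx1 also inside the antioxidant response core. The NF-kappaB consensus was in Sod2, Cat, Gpx1 and Prdx1 (7.81% of genes). A match of letters does not show that a factor binds there.

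Stretches around these matches are printed to show how the letters differ between the members, on the gene's strand, with matches in capitals. The Sod1 stretch is chr16:90220682-90220741, the Prdx1 stretch chr4:116685439-116685498, the Txnrd1 stretch, before the second of its 3 starts by position, chr10:82859086-82859145, and the Sod2 stretch chr17:13007729-13007788, all on the plus strand and before the start site. For Srxn1, on the plus strand of chromosome 2, the first line holds the AP-1 matches before the start (chr2:152105414-152105493) and the second the core after it (chr2:152105542-152105571). The AP-1 match nearer the start reads TGAGTCAgc with its next bases, a spelling that the core search did not cover. In all 4 genes the core lies on the opposite strand, so it reads here as GC, 3 bases, GTCA; in Prdx1 the capitals cover both overlapping motifs. The capitals in Sod2 mark the NF-kappaB consensus.
Sod1: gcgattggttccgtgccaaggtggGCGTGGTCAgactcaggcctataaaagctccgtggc
Prdx1: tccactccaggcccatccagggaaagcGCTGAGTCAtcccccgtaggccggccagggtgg
Txnrd1: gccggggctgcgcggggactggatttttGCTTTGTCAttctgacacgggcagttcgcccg
Srxn1 before the start: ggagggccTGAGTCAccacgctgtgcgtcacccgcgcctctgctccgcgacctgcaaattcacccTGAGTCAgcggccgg
Srxn1 after the start: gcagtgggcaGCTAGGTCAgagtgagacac
Sod2: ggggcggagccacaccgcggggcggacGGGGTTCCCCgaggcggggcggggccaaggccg

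The other genes of redox metabolism were read from 13 lists, which besides the members held 104 genes, 90 of them with a mean of 1 FPKM or more. For nasal against blood neutrophils 27 of the 90 (30%) were at least 4-fold higher and 1 (1.11%) lower, with a median of 1.11 beside 0.41 over all tested genes. For DP against nasal neutrophils 6 (6.67%) were higher and 11 (12.2%) lower. For DP against blood neutrophils 40 (44.4%) were higher and 8 (8.89%) lower. Read against the shares of all tested genes given above, the 11 lower in DP than in nasal neutrophils stand beside 3.62% and the 27 higher in the nose beside 13.1%. The split for DP against nasal neutrophils depends on the scaling: higher and lower were 2 and 19 when centred, 1 and 19 with upper-quartile scaling, 1 and 18 within length bins, and 12 and 12 with a pseudocount of 0.1. For DP against blood neutrophils they were 24 and 16 when centred, 30 and 16 with upper-quartile scaling and 21 and 17 within length bins. For nasal against blood neutrophils they were 25 and 3 when centred and 23 and 4 within length bins. A pseudocount of 5 gave 17 higher and 1 lower for nasal against blood, and 20 and 8 for DP against blood neutrophils. With a pseudocount of 0.1 the numbers higher were 37 and 48. In DP against nasal neutrophils, centring also gave 7 NRF2 targets outside the members lower in place of 4 and 12 NF-kappaB targets in place of 7. It gave 3 methionine sulfoxide reductase and sestrin genes lower in place of 0. From the list of NADPH producers and other pentose phosphate genes it gave 3 lower in place of 1. Over all tested genes centring likewise gave 773 lower in place of 388, so a rise is not particular to these lists. The list medians below stand beside 0.57 over all tested genes for DP against nasal and 0.41 for nasal against blood neutrophils. The list counts at 4-fold stand beside 8.42% higher and 3.62% lower for DP against nasal neutrophils. For nasal against blood neutrophils they stand beside 13.1% and 3.23%.

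Regulators and targets of NRF2 held many of the genes lower in DP than in nasal neutrophils. Of 10 regulators 4 were at least 4-fold lower in DP, 1 (Rbx1, 2.31) higher, and the median was -1.45. The shares over all tested genes were 3.62% and 8.42%. For nasal over blood neutrophils the median was 1.22, with 2 higher (Maff and Sqstm1) and 0 lower, against 13.1% and 3.23% of tested genes. Sqstm1, whose product p62 binds the NRF2 inhibitor KEAP1, stood at 93.8 FPKM in DP, 1066 in nasal and 78.1 in blood neutrophils. The small MAF genes, which encode partners of NRF2, were highest in nasal neutrophils too, with Maff at 31.3, 165 and 0.38 FPKM, Mafg at 4.16, 36.6 and 16.4, and Mafk at 6.11, 39.7 and 11.0. Nfe2l2, which encodes NRF2 itself, differed far less, at 131, 180.4 and 144 FPKM, and Keap1 stood at 4.92, 5.02 and 1.75.

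Of 14 tested NRF2 targets outside the members, 4 (Hmox1, G6pdx, Fth1 and Osgin1) were at least 4-fold lower in DP than in nasal neutrophils and 0 higher. The shares over all tested genes were 3.62% and 8.42%. For nasal against blood neutrophils 6 were higher and 1, Taldo1, lower, against 13.1% and 3.23% of tested genes. The medians of the 14 were -1.36 and 1.00. The haem oxygenase gene Hmox1 stood at 12.7 FPKM in DP, 447 in nasal and 40.8 in blood neutrophils. Fth1, the ferritin heavy chain gene, stood at 4778, 32459 and 3899 FPKM, and Osgin1 at 34.0, 189 and 81.6. These 3 share with Sod2, Txnrd1 and Srxn1 a maximum in nasal neutrophils. Nqo1, a quinone reductase gene, was instead highest in DP, at 86.1, 41.8 and 4.41 FPKM. Other targets of this list were highest in blood neutrophils, namely Gsr (594 FPKM there), G6pdx (172), Pgd (346), Taldo1 (3146) and Tkt (92.4). Abcc1, which encodes a glutathione conjugate exporter, stood at 10.6, 19.6 and 0.18 FPKM.

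Several genes of glutathione synthesis and recycling, but not all, were higher in nasal than in blood neutrophils. Of 9 tested genes of glutathione synthesis and recycling 4 were at least 4-fold higher in nasal than in blood neutrophils and 0 lower. The shares over all tested genes were 13.1% and 3.23%. The list median was 1.41, and that for DP over nasal neutrophils was -0.05. Gclm, the modifier subunit of the rate-limiting ligase, stood at 20.2 FPKM in DP, 72.6 in nasal and 3.39 in blood neutrophils, and Slc7a11, the cystine importer, at 33.6, 83.5 and 5.45. The importer's partner Slc3a2 (155, 214 and 23.7) and Ggct (29.7, 17.2 and 3.42) were the other 2. Between DP and nasal neutrophils Ggt1, a glutathione-degrading enzyme of the cell surface, was lower in DP (2.74 against 29.1 FPKM), and Chac1, which degrades glutathione in the cytosol, was higher (19.3 against 2.50). Gsr, the glutathione reductase gene, was abundant in all, at 354 FPKM in DP, 365 in nasal and 594 in blood neutrophils. Gss was likewise highest in blood, at 11.0, 9.28 and 20.3 FPKM in that order. Gclc stood at 1.61, 0.93 and 0.12 FPKM, below the filter of a mean of 1 FPKM.

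NADPH is spent by both the glutathione and the thioredoxin systems. Of the pentose phosphate pathway, a main source of it, G6pdx, Pgd and Taldo1 were ordered like Txn1, with blood neutrophils highest and DP lowest, while Pgls was lowest in blood (16.1 FPKM in DP, 19.7 in nasal and 10.7 in blood neutrophils). G6pdx, the first enzyme of the pentose phosphate pathway, stood at 20.6 FPKM in DP, 122 in nasal and 172 in blood neutrophils. Pgd followed at 49.3, 172 and 346 FPKM, and Taldo1 at 366, 688 and 3146. The mitochondrial Idh2 was the 1 gene of 11 tested that was at least 4-fold higher in nasal than in blood neutrophils, at 18.0, 12.1 and 1.18 FPKM. Taldo1 was the 1 at least 4-fold lower, and G6pdx the 1 at least 4-fold lower in DP than in nasal neutrophils. Of all tested genes 13.1% were higher and 3.23% lower in nasal than in blood neutrophils, and 3.62% lower in DP than in nasal. Over the 11 genes the median was 0.17 for DP over nasal and -0.25 for nasal over blood neutrophils.

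Glutaredoxins use glutathione to reduce disulfides, and among the 4 genes the cytosolic Glrx and the mitochondrial Glrx5, which serves iron-sulfur cluster assembly, had opposite orders. Glrx stood at 102 FPKM in DP, 673 in nasal and 901 in blood neutrophils. Glrx5 stood at 124, 10.1 and 0.54 FPKM, and Glrx3 at 19.3, 7.78 and 1.53. Glrx5 was the 1 at least 4-fold higher in DP than in nasal neutrophils and Glrx the 1 lower, with a median of 1.33, and for nasal over blood neutrophils the median was 0.69. The methionine sulfoxide reductase genes Sepx1 (now Msrb1) and Msra, whose products repair oxidised methionine, were highest in blood: Sepx1 stood at 277, 919 and 2396 FPKM in the order DP, nasal neutrophils, blood neutrophils, and Msra at 23.3, 66.2 and 204. Sesn2, a sestrin gene of that list, stood at 11.5, 48.2 and 38.1 FPKM. None of the 6 tested genes of that list reached 4-fold in either comparison with nasal neutrophils, and the medians were -0.84 for DP over nasal and -0.92 for nasal over blood neutrophils. Txnip, which encodes a thioredoxin-binding inhibitor, shared the order of Txn1, at 71.7, 158 and 525 FPKM, and Txnl1 stood at 12.4, 18.1 and 5.14. Over the 7 tested genes of the thioredoxin list the medians were -0.51 for DP over nasal and 0.19 for nasal over blood neutrophils; Txnrd1 was the 1 at least 4-fold higher in the latter, and 0 were past 4-fold in the former.

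Many genes of the glutathione S-transferase and metallothionein families were, like the tissue markers above, higher in both nasal libraries than in blood. Of 20 tested glutathione S-transferase genes 9 were at least 4-fold higher in nasal than in blood neutrophils, against 13.1% of all tested genes. In blood 8 of the 23 genes of the list were at 0. The medians were 1.05 for DP over nasal and 1.53 for nasal over blood neutrophils. Gstm5 had 110.3 FPKM in DP, 40.3 in nasal and 0.14 in blood neutrophils, Mgst3 at 131, 52.4 and 0.71, and Gstm2 at 120.2, 21.3 and 0.08. Mgst1 and Mgst2 had the opposite order, at 213, 341 and 744 FPKM and at 1.05, 12.5 and 22.7 FPKM. The transferase list summed to 1089 FPKM in DP, 727 in nasal and 817 in blood neutrophils, where Mgst1 made up most of it. The metallothionein genes Mt1 (223, 46.7 and 0.10 FPKM) and Mt2 (31.8, 10.7 and 0.05) were highest in DP, and the 3 tested of that family had medians of 1.62 and 3.47. The part of nasal tissue cells in these values was not tested. Of the other glutathione peroxidases, Gpx6 (91.4 and 56.1 FPKM) and Gpx2 (17.7 and 11.1) were present in both nasal libraries, DP first, but were listed at 0 in blood; Gpx3 stood at 9.09, 10.2 and 0.16. Prdx4, of the endoplasmic reticulum, stood at 14.4, 6.07 and 0.64 FPKM, Prdx3, of mitochondria, at 37.5, 16.0 and 9.20, and Prdx6 at 393, 220.002 and 69.8. The lists of these peroxidases, members included, had medians of 0.62 and 1.76 (catalase and glutathione peroxidases, 7 tested) and of 0.83 and 1.64 (peroxiredoxins and sulfiredoxin, 7 tested).

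Of genes needed to make selenoproteins, the class of Gpx1, Gpx4 and Txnrd1, most were highest in DP and lowest in blood neutrophils. The medians were 0.91 for DP over nasal and 0.81 for nasal over blood neutrophils over 6 tested. Trnau1ap, Sephs1, Pstk and Eefsec had this order, and Sephs2 and Secisbp2 did not. In DP, nasal and blood neutrophils Sephs1 stood at 5.08, 1.99 and 0.90 FPKM, Pstk at 4.74, 2.30 and 0.68, and Eefsec at 9.63, 2.04 and 0.10. Trnau1ap, which binds the selenocysteine tRNA, stood at 41.7 FPKM in DP, 6.05 in nasal and 1.87 in blood neutrophils. It was the 1 of 6 tested at least 4-fold higher in DP than in nasal neutrophils, against 8.42% of all tested genes. Sephs2, which makes the selenium donor, stood at 47.5, 136 and 134 FPKM, and Secisbp2 at 6.62, 3.62 and 4.78.

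**Figure D5:**
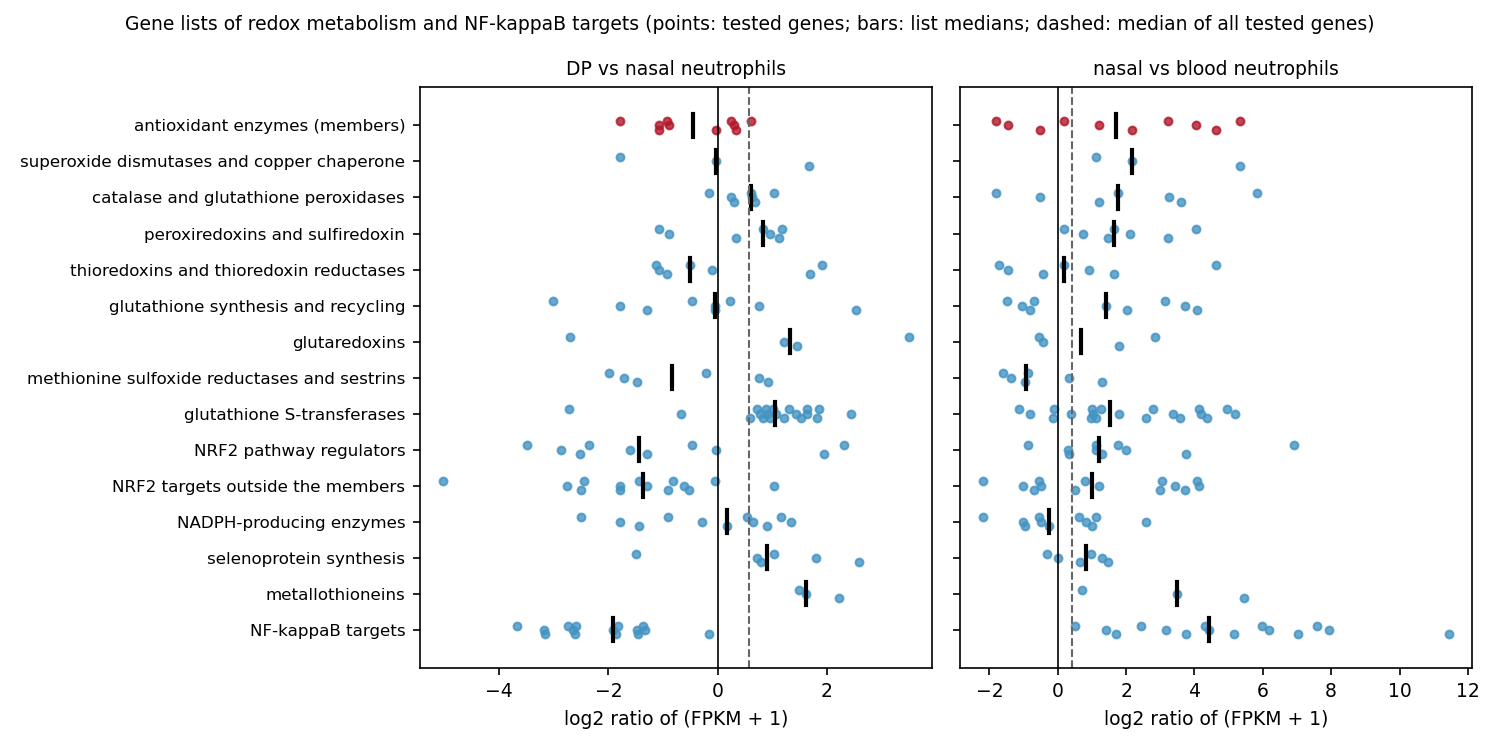
Log2 ratios of FPKM + 1 of each tested gene (points) in the 10 antioxidant genes, 13 redox lists and a list of NF-kappaB targets, with list medians as bars and the median of all tested genes dashed, for DP against nasal (left) and nasal against blood neutrophils (right). The NF-kappaB list has medians of -1.91 and 4.43, the members -0.46 and 1.69.

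Sod2 was set beside other genes because its range was the widest. Over the 3 libraries, and among 6252 genes with a mean of 5 FPKM or more, the 5 genes nearest to it in the log2 ratios of DP against nasal and of nasal against blood neutrophils were Cfb, Nfkbia, Gm4832, Ifrd1 and Nfkbid, at Euclidean distances of 0.07 to 0.26. Cfb, complement factor B, stood at 11.2 FPKM in DP, 39.1 in nasal and 0.01 in blood neutrophils. Nfkbia, which encodes the NF-kappaB inhibitor IkappaB-alpha, stood at 1085, 3929 and 109.9 FPKM, and Nfkbid, of the same family, at 145, 435 and 10.9. Gm4832 stood at 15.4, 62.9 and 0.45 FPKM and Ifrd1 at 55.2, 217 and 5.07. The blood values of Cfb and Gm4832 were below the pseudocount, so their nasal over blood ratios, and their nearness to Sod2, depend on it. The blood values of Nfkbia, Ifrd1 and Nfkbid were above it. Of the 15 listed NF-kappaB targets 12 were at least 4-fold higher in nasal than in blood neutrophils and 0 lower. The shares over all tested genes were 13.1% and 3.23%. In DP 7 of the 15 were at least 4-fold lower than in nasal neutrophils and 0 higher, against 3.62% and 8.42% of tested genes. Among the 15 listed, Cxcl2 stood at 2025, 12756 and 3.60 FPKM in the order DP, nasal neutrophils, blood neutrophils, and Ptgs2 at 264, 738 and 2.01. Nfkbiz stood at 86.7, 1121 and 16.7, and Relb at 5.18, 54.7 and 5.14. Whether Sod2 shares a cause with any of these genes was not tested.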

How the data were processed

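RNA-seq tables of 3 sorted cell populations, 1 library each, were used as deposited. Per the submitters' processing notes, TopHat2 2.0.8, Bowtie2 2.1.0, Cufflinks 2.1.1 and the mm9 genome were used; for settings, annotation and strand handling: not given in the sources used here. The deposited values are FPKM, which the authors estimated with the Cufflinks step, so count models do not apply. Values above 0 and below 1e-06 FPKM were set to 0. Ratios are differences of log2(FPKM + 1), which understate the change of low genes; genes with a mean of 1 FPKM or more (10719) were tested for a 4-fold or 2-fold difference. With 1 library per group there was no test, p-value or SD. The ratio step was checked on simulated data.

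Depth was estimated from steps between low values times transcript length in 1756 genes with 1 transcript of more than 1500 nt; 50, 52 and 39 genes lay within 6% of the step in DP, nasal and blood neutrophils, so depths are approximate. Lengths are medians of GENCODE M21 transcripts with a RefSeq mRNA, of another build than mm9, used as lengths only. RefSeq lists the pseudogenes Gpx4-ps1, Gpx4-ps2 and Prdx1-ps, so Gpx4 and Prdx1 are uncertain where the authors' counting could divide reads between copies; haemoglobin genes and the Gstm genes are uncertain likewise.

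The members and gene lists were chosen with earlier results of these data known. Besides the members, genes were named from each list as the 2 with the largest ratio in DP against nasal and the 2 in nasal against blood neutrophils, at a mean of 5 FPKM or more. Nfe2l2, Keap1, Sod3, Gsr, Txnrd2, Mafk, Rbx1, Nqo1, Osgin1, Slc3a2, Ggct, Gpx3, Pgls, Ptprc, Ly6c2, Tkt, Sephs1, Pstk, Eefsec, Mgst1, Gss and Gclc lie outside that rule or identify small counts. These, like the printed stretches, were chosen after the values were seen. Marker genes are named where they are at 0, and the tested eosinophil markers are named too. Of listed genes, Ly6g, Ahsp and Ighm were not analysed here. Python 3.11.15, pandas 2.3.3, numpy 2.4.6 and matplotlib 3.10.9 were used.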

Additional observations from a re-analysis of the deposited data

How the results depend on the processing

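The 9 alternatives were pseudocounts of 0.1 and 5, no filter or a mean of 5 FPKM, 4 scalings and a 2-fold threshold; neither filter changed a member count or median. No member was at least 4-fold higher in DP than in nasal neutrophils under any. The number 4-fold lower in DP was 1 with centred ratios and with upper-quartile scaling, 2 within transcript length bins and 3 at 2-fold, in place of 0. For nasal against blood neutrophils the number higher was 5, and 4 with centred ratios and with upper-quartile scaling, 3 with a pseudocount of 5 and 6 at 2-fold; the number lower was 0, and 1 with centred ratios, 2 within length bins and 2 at 2-fold. For DP against blood neutrophils the number higher was 5, and 3 with centred ratios, length bins, upper-quartile scaling and a pseudocount of 5, and 6 at 2-fold; the number lower was 1, and 2 with centred ratios, upper-quartile scaling and at 2-fold, and 4 within length bins. Under pseudocount 0.1, pseudocount 5, rescaling to a sum of 1000000, median centring, upper-quartile scaling and length bins, the median of the members was -0.46, -0.41, -0.50, -1.03, -1.12 and -1.44 for DP against nasal neutrophils (reported as -0.46). In that order it was 1.86, 1.23, 1.84, 1.28, 1.55 and 1.51 for nasal against blood neutrophils (1.69), and 2.01, 0.94, 1.94, 0.87, 1.07 and 0.64 for DP against blood neutrophils (1.83). Of 180 recomputed member ratios 13 had another sign, those of Cat, Gpx1, Gpx4 and Prdx1 in DP against nasal and of Prdx5 in nasal against blood neutrophils; none of these was 4-fold. Without the 2-fold threshold, under which a count cannot fall, 136 of 720 recomputed counts of the other lists moved by more than 1.5 times, 71 up and 65 down. The cause was not tested. No library could be left out with 1 per group. No paired analysis was possible because each group has 1 library. The nasal neutrophil library is the shallowest, and the weakest member value, about 107 fragments, lies in blood.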
